A study of Mus musculus with 8 samples.

Results

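The 10 transcripts described here belong to interleukin-6 family signaling: the cytokines Il6 and Lif, the receptor chains Il6ra, Il6st, Lifr and Osmr, the kinases Jak1 and Jak2, the transcription factor Stat3 and its feedback inhibitor Socs3. They were chosen by name, with earlier results of these data known, and make up 10 of the 17997 genes that could be tested in muscle stem cells (MuSCs). All 10 passed the filter on low counts. MuSCs are the Pax7-expressing satellite cells that repair skeletal muscle. They were taken from male Pax7CreERT2-Rosa26nTnG (Pax7-nTnG) mice, 5 to 6 months old, in which tamoxifen, given to all groups, lets a Cre recombinase under Pax7 control switch nuclei from red to green fluorescence. One group of 3 mice was fed a vitamin A-free (VA-free) diet for 8 weeks and the other group of 2 mice control chow, so that the diet is the only stated difference between the groups. Green cells of the gastrocnemius and quadriceps were sorted, and the RNA of a mouse was divided into technical portions A and B at the purification column. The libraries analysed were control 1A, 1B, 2A and 2B, and VA-free 1B, 2A, 3A and 3B, in which the number is the mouse.

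IL-6 binds its receptor chain Il6ra, and the complex then engages gp130, the signaling chain encoded by Il6st. LIF and oncostatin M signal through gp130 paired with Lifr or Osmr. Janus kinases bound to these chains phosphorylate STAT3, which enters the nucleus and induces Socs3, whose product blocks gp130 and the kinases. In muscle, IL-6 and LIF are known to act on satellite cells and myoblasts, and STAT3 signaling in MuSCs is known to favour commitment over self-renewal.

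On the VA-free diet, Il6 and its receptor chain Il6ra fell, to a level 5.68-fold and 2.92-fold below control, and so did Lifr. Lif, the other cytokine among the 10, rose 6.61-fold from a very low level, and Socs3, Stat3 and Jak2 rose by 2.41-fold, 1.56-fold and 1.51-fold. The shared chain Il6st, Osmr and Jak1 did not pass the test. Thus 3 of the 10 genes were lower and 4 were higher at an adjusted p under 0.05 (quasi-likelihood test of edgeR, adjusted by Benjamini-Hochberg over all 17997 genes). The rises of Jak2 and Stat3 were not called once a trend of fold change with gene length, described below, was removed, which left 2 genes higher. All 4 rises lost their call with 1 library per mouse, a fit that keeps 2A alone for control mouse 2. Their log2 fold changes there were 3.05 for Lif, 1.95 for Socs3, 0.60 for Jak2 and 0.58 for Stat3. Of all tested genes, 22.5% were called lower and 18.9% higher, 41.4% in all. In 8 of the 10 genes, no library of one diet overlapped those of the other, which held for 41.3% of all tested genes. The plot of levels by library shows these values, and the plot of fold changes shows the test.

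**Figure D1:**
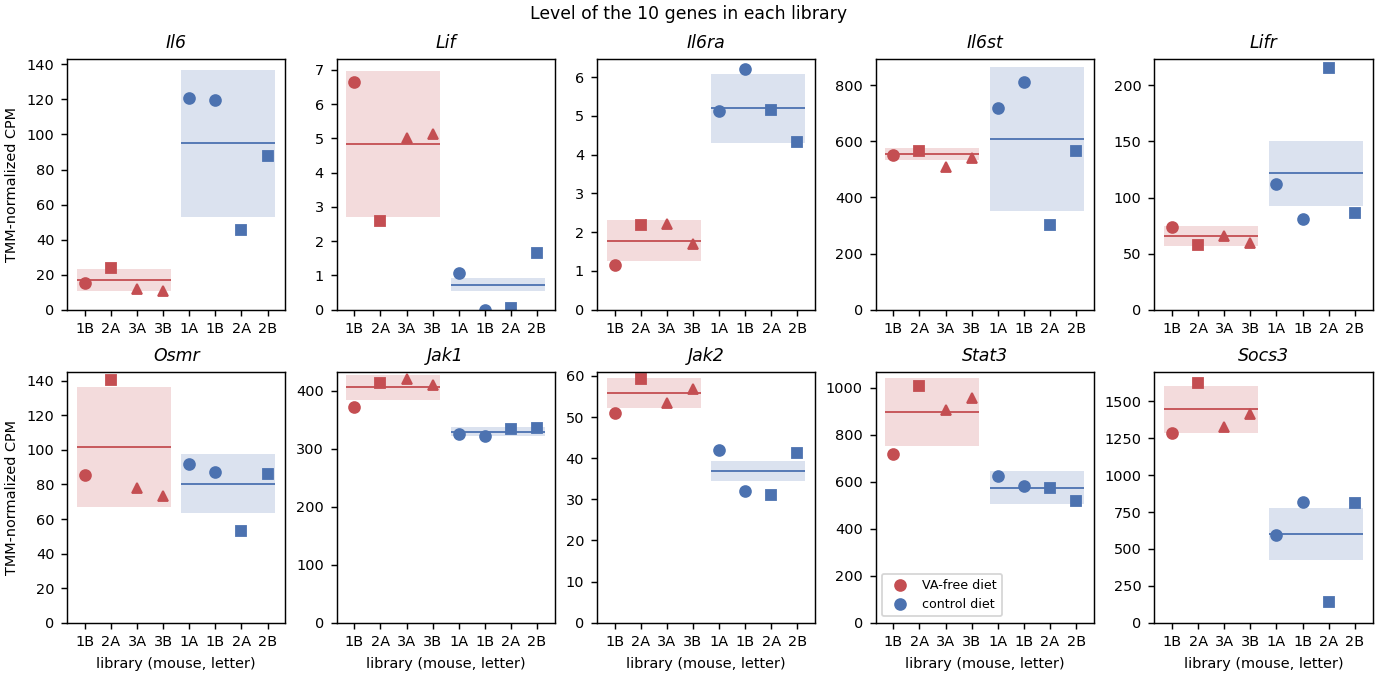
Level of each of the 10 genes in the 8 libraries, in CPM, the count of a gene scaled to the size of its library after TMM normalization, with red for the VA-free and blue for the control diet and the marker shape for the mouse number within a diet. Lines are means over mice and bands 1 SD (n = 3 VA-free and 2 control mice). The diets do not overlap in any gene but Il6st and Osmr, and control library 2A lies apart from the other control libraries for Socs3, Lifr and Osmr.

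Some properties of the libraries bear on all of these values. The estimated counts of a library summed to between 44831232 and 88650428. Control libraries 2A and 2B are portions of 1 mouse, yet Socs3 was 5.90 times higher in 2B than in 2A. They differed over the tested genes too, with a chi-square per degree of freedom of 564, where counting error alone gives about 1. It was 49.1 between control 1A and 1B and 10.1 between VA-free 3A and 3B. The edgeR fit adds 2A and 2B, so fold changes without 2A are plotted for the 10 genes as well. The fold change of a gene followed its length. Among genes of at most 1000 bases the median log2 fold change was -0.74, and it was 0.06 between 2000 and 2500 bases and 0.60 above 5000 bases. Fold changes with this trend removed are therefore plotted beside the main ones for the 10 genes, and in the lists of related genes the named genes that lost their call there are given. With the trend removed, 17.5% of all genes were called lower and 11.9% higher. Without 2A these shares were 21.6% and 18%. MuSC markers summed to between 7730 and 8701 CPM in the VA-free libraries and between 2867 and 5277 CPM in the control libraries, and 11 of 12 were called higher on the VA-free diet. Markers of endothelial cells (100.7 to 157 against 831 to 2240 CPM, 8 of 8 called lower), tenocytes (38.3 to 62.3 against 592 to 1065 CPM, 4 of 5) and Schwann cells (31.6 to 40.8 against 282 to 599.8 CPM, 5 of 5) went the other way. The sums were also lower for macrophages and monocytes (27.2 to 153 against 188 to 929.6 CPM, 4 of 10 called lower), fibro-adipogenic progenitors (6945 to 8073 against 8141 to 9055 CPM, 4 of 8), pericytes and smooth muscle (1504 to 1791 against 2498 to 2971 CPM, 4 of 6 lower and 1 higher) and myofibers (226 to 283 against 332 to 408 CPM, 3 of 6, and 1 of 6 with the length trend removed). Some of these sums rest mostly on genes that were not called, namely Gsn for the progenitors and Acta1 for myofibers, while the called progenitor markers Ly6a and Pi16 were 23.3-fold and 12.4-fold lower. Among pericyte markers Rgs5 was 69.2-fold lower and Notch3 6.87-fold higher. No defining marker of these types was at 0 in every VA-free library. Markers of neutrophils stayed at or below 0.52 CPM and those of T and NK cells at or below 0.97 CPM in the VA-free libraries, with Nkg7 and Trbc2 at 0 in all of them. The summed level of dissociation and immediate early genes overlapped between the diets (29940 to 35570 against 28080 to 38080 CPM). Of these 12 genes, 3 were called lower and 2 higher, close to the shares over all tested genes (22.5% and 18.9%). Among them were Fos, called lower (-0.41), and Egr1, called higher (0.68). With the length trend removed, 2 were called lower and 1 higher, against 17.5% and 11.9% of all tested genes. Neither Fos (-0.25, adjusted p = 0.228) nor Egr1 (0.32, adjusted p = 0.26, both edgeR) was called there. The part of other cell types in the results below was not tested, and in sorted bulk RNA fewer cells of a type and less RNA per cell cannot be told apart.

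**Figure D2:**
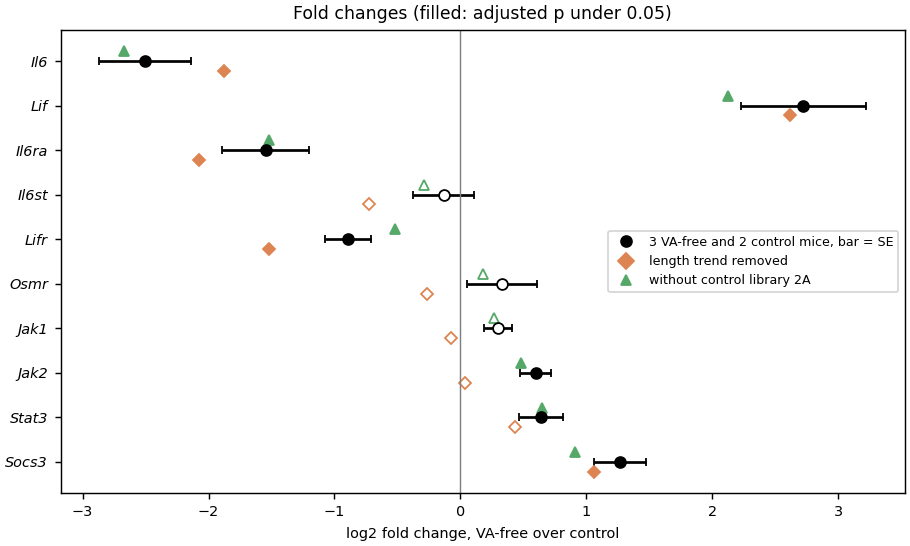
Log2 fold change (x axis, VA-free over control) of the 10 genes. Black circles with bars give the value and its standard error from 3 VA-free and 2 control mice, orange diamonds the value with the length trend removed and green triangles the value without control library 2A. Filled markers have an adjusted p under 0.05. Il6, Il6ra and Lifr lie below 0 and Lif and Socs3 above 0 in all 3 fits, whereas Jak2 and Stat3 are open where the length trend was removed.

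The cytokine gene Il6 (ENSMUSG00000025746.11, chr5:30013114-30019981 of GRCm38, plus strand) was measured at 15 CPM in VA-free 1B, 23.6 in 2A, 11.9 in 3A and 10.5 in 3B. The control libraries held 121 CPM (1A), 119.5 CPM (1B), 45.3 CPM (2A) and 87.6 CPM (2B). All control libraries were above all VA-free libraries, the closest being control 2A and VA-free 2A. The estimated counts behind these values were 520 to 1406 on the VA-free and 2178 to 6101 on the control diet, so counting error is small beside the difference between control mice. The mean was 16.8 ± 6.3 CPM (SD, n = 3) against 94.9 ± 41.8 CPM (SD, n = 2), which gave a log2 fold change of -2.51 with a standard error of 0.36 (adjusted p = 0.002, edgeR). It was -1.88 with the length trend removed and -2.67 without control 2A, and the call held under all 22 alternatives, with adjusted p between 4.7e-11 and 0.0254 (edgeR, limma or DESeq2). Il6 is among the shorter genes (1002 bases), and its trend term was -0.62 on the log2 scale.

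Lif (ENSMUSG00000034394.14, chr11:4257557-4272514, plus strand), which encodes leukemia inhibitory factor, was near the limit of detection in control MuSCs. Control 1A held 54 of its estimated counts, 1B held 0, 2A held 3 and 2B held 89, whereas VA-free 1B held 624, 2A held 144, 3A held 227 and 3B held 255. The 0 in control 1B allows a level of up to 0.0674 CPM (3 counts, counting error only). Scaled to CPM, VA-free 1B stood at 6.66, 2A at 2.58, 3A at 5 and 3B at 5.13, and control 1A stood at 1.07, 1B at 0, 2A at 0.0624 and 2B at 1.65. Every VA-free library was thus above every control library, but portions of each control mouse differed widely. The means over mice were 4.84 ± 2.13 CPM (SD, n = 3) against 0.732 ± 0.199 CPM (SD, n = 2), which gave a fitted log2 fold change of 2.72 with a standard error of 0.50 (adjusted p = 0.00511, edgeR). Without control 1A the call was lost (log2 fold change 3.37, adjusted p = 0.0799), as it was with 1 library per mouse (3.05, adjusted p = 0.0934, both edgeR). Without control 2A the log2 fold change was 2.13 (adjusted p = 0.0248), and without control 2B, which leaves mouse 2 with the 3 counts of 2A, it was 3.81 (adjusted p = 0.0422, both edgeR).

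Il6 and Lif moved in opposite directions, and the DNA before their start sites is shown for comparison (RefSeq start, GRCm38.p6, 250 bases before the start, 5′ to 3′ on the strand of the gene, chr5:30012864-30013113 for Il6 and chr11:4257318-4257567 for Lif). Capitals mark matches to 6 motifs searched on both strands, namely the STAT element TTCNNNGAA, an NF-kB element (GGGA and TTCC, separated by 2 bases), the C/EBP element TTNNGCAAT, the AP-1 element TGAGTCA, the cAMP response element TGACGTCA and a retinoic acid response element of the direct repeat type (AGGTCA and AGGTCA, separated by 5 bases).
Il6 promoter: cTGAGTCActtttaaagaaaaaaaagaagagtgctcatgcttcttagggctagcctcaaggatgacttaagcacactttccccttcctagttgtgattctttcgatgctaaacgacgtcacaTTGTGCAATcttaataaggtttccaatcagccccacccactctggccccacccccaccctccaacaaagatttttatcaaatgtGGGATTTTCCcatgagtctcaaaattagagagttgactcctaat
Lif promoter: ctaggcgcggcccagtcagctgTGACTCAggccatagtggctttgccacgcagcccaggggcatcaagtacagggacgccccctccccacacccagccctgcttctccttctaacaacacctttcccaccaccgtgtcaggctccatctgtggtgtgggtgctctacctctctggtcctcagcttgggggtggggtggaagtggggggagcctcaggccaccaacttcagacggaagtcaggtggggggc
In Il6 the AP-1 match began 249 bases, the C/EBP match 128 bases and the NF-kB match 44 bases before the start site. In Lif the only match was an AP-1 element on the minus strand, beginning 228 bases before the start. Among 32851 RefSeq promoter windows of 300 bases (250 before to 50 after the start), 5.2% held the AP-1, 2.18% the C/EBP and 1.47% the NF-kB letters. No member window held the retinoic acid response element, which 0.00913% of all windows did. All 10 genes had a window in that table, and Lifr had 2, 11 in all. A match is a run of letters and no measure of binding.

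Il6ra (ENSMUSG00000027947.11, chr3:89864059-89913196, minus strand), the chain that gives a cell its own binding site for IL-6, was a low transcript. It stood at 1.15 CPM in VA-free 1B, 2.19 in 2A, 2.22 in 3A and 1.69 in 3B, and at 5.12 in control 1A, 6.21 in 1B and 4.32 in 2B, with 5.14 in 2A. These values rest on 84 to 122 counts in a VA-free and 233 to 274 in a control library, and the diets did not overlap. The means were 1.78 ± 0.53 CPM (SD, n = 3) against 5.19 ± 0.89 CPM (SD, n = 2), and the log2 fold change was -1.55 with a standard error of 0.34 (adjusted p = 0.0113, edgeR). With the length trend removed the log2 fold change was -2.07. Only log2(TPM + 0.1) ended the call (-1.27, adjusted p = 0.0721, limma).

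Il6st (ENSMUSG00000021756.12, chr13:112464070-112510086, plus strand), which encodes gp130, was abundant on both diets. The VA-free libraries were close together at 553 CPM in 1B, 566.5 in 2A, 509 in 3A and 539.6 in 3B. The control libraries were spread on both sides of them, at 720.1 CPM in 1A, 812.5 in 1B and 564.5 in 2B, with 303.5 in 2A. The means were 555 ± 20.2 CPM (SD, n = 3) against 608 ± 257 CPM (SD, n = 2). The log2 fold change was -0.13 with a standard error of 0.24 (adjusted p = 0.703, edgeR). Removing the length trend took it to -0.73 (adjusted p = 0.0588, edgeR). Which control mouse was kept decided the result. The log2 fold change was 0.38 without control mouse 1 (adjusted p = 0.0413) and -0.52 without control mouse 2 (adjusted p = 0.0137, both edgeR), so neither direction can be given.

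Lifr (ENSMUSG00000054263.12, chr15:7090614-7197489, plus strand), the chain that pairs with gp130 for LIF, was at 73.8 CPM in VA-free 1B, 57.8 in 2A, 65.4 in 3A and 59.5 in 3B. In the control libraries it was at 111.9 CPM in 1A, 80.8 in 1B and 86.2 in 2B, with 215.4 in 2A. All control libraries were higher, and 2A stood far above the other 3. The means were 65.5 ± 9.07 CPM (SD, n = 3) against 121.5 ± 29.3 CPM (SD, n = 2), and the log2 fold change was -0.89 with a standard error of 0.18 (adjusted p = 0.00799, edgeR). Without control 2A the log2 fold change shrank to -0.52 (adjusted p = 0.0256), whereas removing the length trend gave -1.52 (adjusted p = 0.00139, both edgeR). The call held under all 22 alternatives.

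The counts of Lifr came from 2 kinds of transcript. Besides the full receptor (reading frame of 1092 codons), mice make a shorter Lifr transcript that ends in its own last exon and encodes a receptor without the membrane-spanning part (719 codons). Both share the exon before the split, and the sequences below show the last 40 shared bases in lower case and, in capitals, what follows in each. The short form reads 8 bases to its stop codon in an exon at chr15:7185067-7185346. The full form continues in the exon at chr15:7185566-7185733, of which the first 30 bases are shown.
Lifr short form: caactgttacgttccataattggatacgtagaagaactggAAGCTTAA
Lifr full form: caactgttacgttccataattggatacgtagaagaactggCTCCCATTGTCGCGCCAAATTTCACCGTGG
Estimated transcript levels are given as a description with no test, since no error of the split was used, and these classes were chosen after their values were seen. The short form stood at 4.74 CPM in VA-free 1B, 4.29 in 2A, 5.15 in 3A and 2.61 in 3B, and at 34.7 in control 1A, 20.2 in 1B and 15.6 in 2B, with 11.1 in 2A. The diets did not overlap, and the means over mice were 4.34 ± 0.49 CPM (SD, n = 3) against 21.0 ± 11.2 CPM (SD, n = 2). The full form stood at 68.9 CPM in VA-free 1B, 53.1 in 2A, 59.7 in 3A and 56.6 in 3B. In control 1A it stood at 75.4, in 1B at 58.8, in 2A at 202 and in 2B at 69.1 CPM, so that for the full form the diets overlapped. As a share of all Lifr counts, the short form took 4.38% to 7.88% in the VA-free libraries, 18.1% to 31.0% in control 1A, 1B and 2B and 5.16% in control 2A. The short form is also the shorter transcript, and the part of the length trend in this difference was not tested.

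Osmr (ENSMUSG00000022146.12, chr15:6813577-6874969, minus strand), the chain for oncostatin M, was at 85.4 CPM in VA-free 1B, 140.7 in 2A, 78.1 in 3A and 73.1 in 3B. The control libraries were at 92.1 CPM in 1A, 87.0 in 1B and 86.2 in 2B, with 53.3 in 2A. The diets overlapped, with VA-free 2A the highest library and control 2A the lowest. The log2 fold change was 0.33 with a standard error of 0.28 (adjusted p = 0.382, edgeR), between means of 101.6 ± 34.5 CPM (SD, n = 3) and 80.6 ± 17.3 CPM (SD, n = 2). Transcripts without a reading frame, which keep an intron, took 17.7% to 32.9% of the Osmr counts in the VA-free libraries and 10.5% to 14.4% in the control libraries. The spliced coding transcripts alone were at 75.8 ± 26.3 and 70.8 ± 16.8 CPM (SD, n = 3 and 2).

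**Figure D3:**
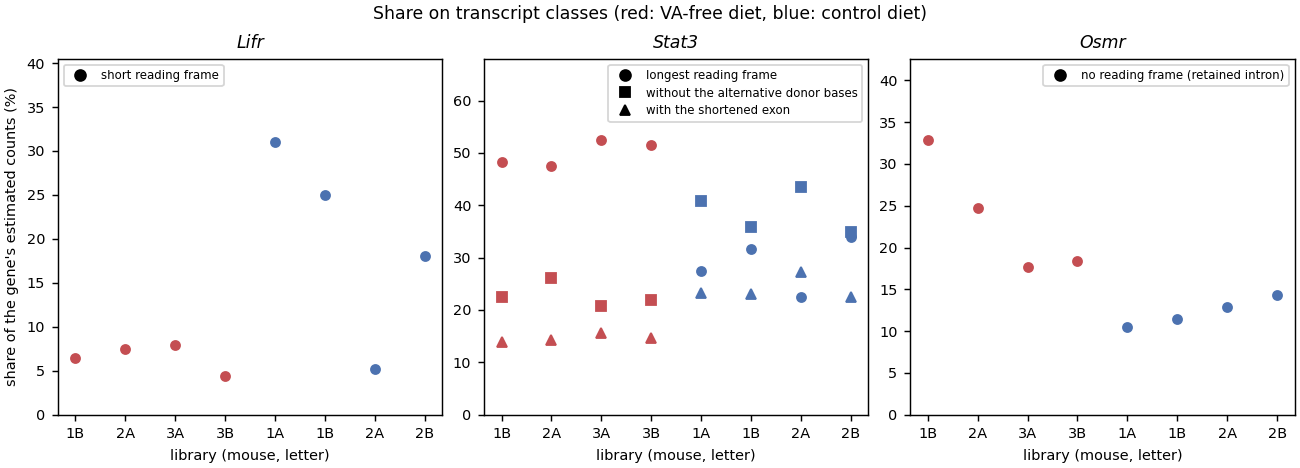
Share of the estimated counts of Lifr, Stat3 and Osmr (y axis, percent) on classes of their transcripts in each of the 8 libraries (x axis). The Lifr short form is above 18% in control 1A, 1B and 2B and below 8% elsewhere, the Stat3 transcript with the longest reading frame is higher in every VA-free than in every control library, and so is the share of Osmr without a reading frame.

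Jak1 (ENSMUSG00000028530.14, chr4:101152367-101265282, minus strand), the main kinase bound to gp130, varied little. It was at 373 CPM in VA-free 1B, 414.5 in 2A, 420.6 in 3A and 411 in 3B, while control 1A stood at 326.5, 1B at 321.4, 2A at 334.3 and 2B at 336.3 CPM. The libraries of the diets did not overlap, but the log2 fold change was 0.30 with a standard error of 0.11 and missed the threshold (adjusted p = 0.0723, edgeR). DESeq2 called it with an adjusted p of 0.0356 and a log2 fold change of 0.29, and with the length trend removed the log2 fold change was -0.07.

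Jak2 (ENSMUSG00000024789.13, chr19:29251828-29313080, plus strand), a kinase of the same family, was at 51.1 CPM in VA-free 1B, 59.4 in 2A, 53.5 in 3A and 56.8 in 3B. Control 1A held 41.9, 1B 32.1, 2A 31.1 and 2B 41.3 CPM, all below the VA-free libraries. The means were 55.9 ± 3.63 CPM (SD, n = 3) against 36.9 ± 2.40 CPM (SD, n = 2), which gave a log2 fold change of 0.60 with a standard error of 0.12 (adjusted p = 0.00768, edgeR). Jak2 is a gene of 4195 bases, and with the length trend removed its log2 fold change was 0.04 (adjusted p = 0.848, edgeR).

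Stat3 (ENSMUSG00000004040.16, chr11:100885098-100939540, minus strand) was measured at 717.7 CPM in VA-free 1B, 1007 in 2A, 904.5 in 3A and 955.9 in 3B. In control 1A it was at 622.7, in 1B at 579.9, in 2A at 572.8 and in 2B at 515.7 CPM. The diets did not overlap, VA-free 1B being the nearest to control, and control 2A did not stand apart for this gene. The means were 895.5 ± 144 CPM (SD, n = 3) against 574 ± 70.1 CPM (SD, n = 2), and the log2 fold change was 0.64 with a standard error of 0.17 (adjusted p = 0.0236, edgeR). The call rested on few animals. It was lost without VA-free mouse 2 (0.55, adjusted p = 0.0755) or VA-free mouse 3 (0.60, adjusted p = 0.0774). The same held without control library 2B (0.56, adjusted p = 0.108) and when the length trend was taken out (0.44, adjusted p = 0.103, all edgeR). Without control mouse 2, which leaves 1 control mouse, the log2 fold change was 0.52. Its exons overlap those of Stat5a on the other strand, and the library kit does not mark strand, so reads in the overlap cannot be told apart. Jak1 overlaps Raver2 and Il6ra overlaps Gm42809 in the same way.

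The counts of Stat3 were also divided differently among its transcripts, which differ by small splice choices. The 770-codon frame carries 3 bases at the end of the exon chr11:100893074-100893286 that the 769-codon frame leaves out (capitals, with 30 bases on each side).
Stat3, 770 codons: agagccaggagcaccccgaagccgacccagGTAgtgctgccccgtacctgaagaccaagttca
Stat3, 769 codons: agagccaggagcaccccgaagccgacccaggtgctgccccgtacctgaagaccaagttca
The 722-codon frame, STAT3 beta, instead skips the first 50 bases of the exon chr11:100889478-100889590 (capitals, with 20 bases on each side), which shifts its frame and replaces the transactivation domain with a short tail.
Stat3 alpha acceptor: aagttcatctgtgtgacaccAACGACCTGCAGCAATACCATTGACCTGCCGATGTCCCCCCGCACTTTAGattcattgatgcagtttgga
Stat3 beta acceptor: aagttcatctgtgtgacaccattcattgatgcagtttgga
The 770-codon transcript took 48.3% of the Stat3 counts in VA-free 1B, 47.6% in 2A, 52.4% in 3A and 51.6% in 3B. In control 1A it took 27.5%, in 1B 31.6%, in 2A 22.6% and in 2B 34.0%. Its mean level was 442 ± 75.4 CPM (SD, n = 3) against 166 ± 24.3 CPM (SD, n = 2), while the 769-codon transcript took 23.3% ± 2.47 against 38.9% ± 0.455 (SD, n = 3 and 2) and the 744-codon transcript 14.5% ± 0.62 against 24.0% ± 1.14. STAT3 beta stayed a minor form, at 3.16% to 5.29% in the VA-free and 2.32% to 3.41% in the control libraries. The 770-codon transcript is annotated with 4516 bases, the 769-codon one with 2927 and the 744-codon one with 2506. The shares therefore also follow transcript length, and whether the splice choice or the length sets them was not tested.

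Socs3 (ENSMUSG00000053113.3, chr11:117966079-117970047, minus strand), the STAT3-induced feedback inhibitor, had the highest mean level per length of the 10 genes on both diets. It was at 1289 CPM in VA-free 1B, 1625 in 2A, 1330 in 3A and 1413 in 3B. The control libraries held 595.5 CPM in 1A, 820.2 in 1B and 810.2 in 2B, with 137.4 in 2A. Every VA-free library was above every control library, and control 2A was far below the other 3. The means were 1446 ± 162 CPM (SD, n = 3) against 601 ± 175 CPM (SD, n = 2). The log2 fold change was 1.27 with a standard error of 0.21 (adjusted p = 0.00331, edgeR). Without control 2A it was 0.91 (adjusted p = 0.00251), and removing the length trend gave 1.06 (adjusted p = 0.0103). Without control 2B, which leaves 2A alone for control mouse 2, the log2 fold change was 1.73 but not called (adjusted p = 0.117), and 1 library per mouse, which also keeps 2A, gave 1.95 (adjusted p = 0.0674, all edgeR).

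Socs3 is a classical STAT3 target, and its promoter was the only one of the 11 windows with a STAT element. It is shown as above (chr11:117969367-117969616, minus strand), with the element in capitals.
Socs3 promoter: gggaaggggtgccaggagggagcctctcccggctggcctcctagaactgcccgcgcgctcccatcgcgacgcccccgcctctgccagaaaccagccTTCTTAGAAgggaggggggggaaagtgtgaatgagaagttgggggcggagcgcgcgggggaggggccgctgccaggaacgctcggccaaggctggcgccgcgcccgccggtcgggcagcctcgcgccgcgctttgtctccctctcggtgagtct
The match began 154 bases before the start site, and 8.3% of the 32851 windows held such letters. Among the other members, Jak1 had a cAMP response element 101 bases before its start, as 1.79% of all windows had, and the windows of Il6ra, Il6st, Lifr, Osmr, Jak2 and Stat3 held none of the 6 motifs.

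Levels of different genes are compared in TPM, the estimate of transcript abundance that divides by length. On the VA-free diet Socs3 (1054 ± 111 TPM) and Stat3 (663 ± 73.5) led, followed by Jak1 (229.6 ± 2.03), Il6st (214 ± 8.66), Osmr (39.7 ± 12.4), Il6 (32.0 ± 13.0), Jak2 (24.5 ± 1.48), Lifr (17.3 ± 1.56), Lif (4.19 ± 1.66) and Il6ra (0.761 ± 0.381, all SD, n = 3 mice). Il6 did not differ beyond its spread from its neighbours Osmr and Jak2. On the control diet Socs3 (329 ± 80.1 TPM) and Stat3 (306 ± 25.7) did not differ beyond their spread, nor did Il6st (180.1 ± 71.5), Jak1 (159.9 ± 1.88) and Il6 (137 ± 55.4). Below them stood Lifr (36.01 ± 0.0388), Osmr (22.1 ± 3.80), Jak2 (11.8 ± 0.78), Il6ra (1.82 ± 0.19) and Lif (0.357 ± 0.182, all SD, n = 2 mice). Il6 thus ranked with the signaling chain Il6st in control cells and with Osmr and Jak2 in VA-free cells, and Il6ra was below Il6st by more than the spread on both diets. These orders are a description with no test.

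**Figure D4:**
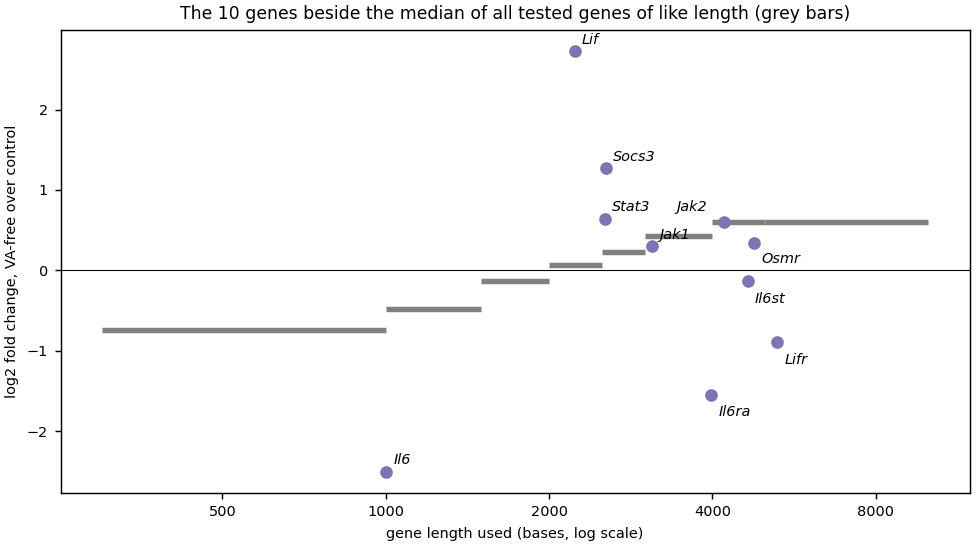
Log2 fold change (y axis, VA-free over control) of the 10 genes against gene length (x axis, log scale). Grey bars give the median of all tested genes in 8 length classes, which runs from -0.74 for genes of at most 1000 bases to 0.60 above 5000 bases. Jak2 lies on the median of its class, Jak1 close to it, and Il6, Il6ra, Lifr, Lif and Socs3 far from theirs.

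Of the other ligands and receptors of the family, 12 of 13 were tested. Of these, 3 were called lower and 2 higher, close to the shares over all tested genes (22.5% and 18.9%). The median log2 fold change was -0.04 (0.00 over all tested genes). Clcf1, which encodes cardiotrophin-like cytokine, rose from 15.3 to 37.7 CPM in the control libraries to 74.9 to 103 CPM in the VA-free libraries (log2 fold change 1.59, standard error 0.17). Cntf, ciliary neurotrophic factor, known from Schwann cells, fell from between 3.19 and 11.3 CPM to at most 0.171 CPM, a fitted log2 fold change of -5.81 (standard error 0.36), beside the Schwann cell markers given above. Its VA-free libraries held only 5 to 16 estimated counts. The leptin receptor Lepr (-1.20, standard error 0.31) and Il27ra (-2.19, standard error 0.45) fell too, while Il11ra1, which can share reads with its near-identical copy Il11ra2, was measured at -0.08 with a standard error of 0.18. With the length trend removed, 3 of these genes were called lower and 3 higher, against 17.5% and 11.9% of all tested genes.

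**Figure D5:**
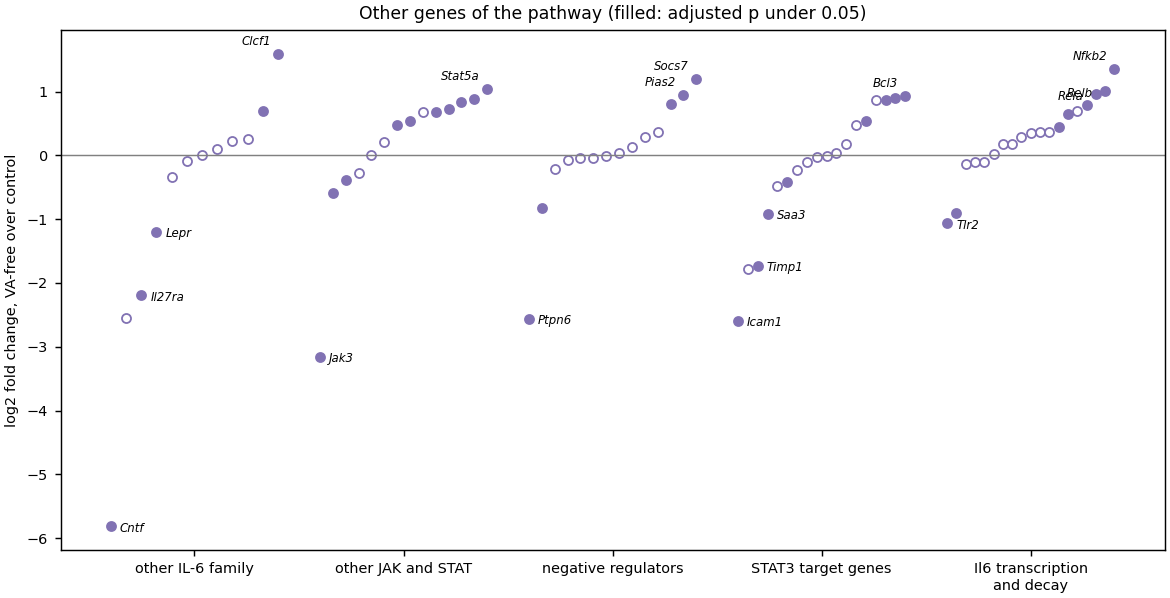
Log2 fold change (y axis, VA-free over control) of the tested genes of 5 related lists, with filled circles for an adjusted p under 0.05 and names for called genes whose log2 fold change exceeds 0.9 in size. Called genes lie on both sides of 0 in every list.

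Among 14 other kinases, STATs, adaptors and receptor sheddases, 7 were called higher and 3 lower, against 18.9% and 22.5% of all tested genes. Their median log2 fold change was 0.50. Without control library 2B, 2 were called higher and 1 lower, and with 1 library per mouse 3 and 1. With the replicate block, 4 were called higher and 1 lower. Fewer of all tested genes were called without control library 2B as well, as given at the end. The shares over all genes in these fits are not given, so these counts are not read as a trait of the list. Stat5a rose by 1.04 (standard error 0.14), from 22.7 to 40.5 CPM to 58.8 to 72.7 CPM, Stat2 by 0.83 (standard error 0.18), Stat5b by 0.73 (standard error 0.15), the gp130 adaptor Gab1 by 0.88 (standard error 0.16) and the adaptor Shc1 by 0.54 (standard error 0.14). Adam10, a protease that can shed Il6ra, was measured at 0.22 with a standard error of 0.14. Jak3, known from lymphoid cells, was called lower (-3.16, standard error 0.54), but its control libraries ran from 1.83 CPM in 2A to 47.9 CPM in 1B and overlapped the VA-free ones (2.29 to 4.26 CPM). With the length trend removed only 2 of the 14, Stat2 (0.73) and Stat5a (0.65), were called higher and 3 lower, against 11.9% and 17.5% of all tested genes. The median was then 0.08. Stat5b (0.16, adjusted p = 0.489), Gab1 (0.27, adjusted p = 0.246) and Shc1 (0.34, adjusted p = 0.0971, all edgeR) lost their call there.

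Of 14 other negative regulators, 3 were called higher and 2 lower (median 0.02), against 18.9% and 22.5% of all tested genes. Socs7 rose by 1.20 (standard error 0.21) and Pias2, a STAT inhibitor of the PIAS family, by 0.95 (standard error 0.15), whereas Socs2, induced by growth hormone, fell by 0.82 (standard error 0.10) and Ptpn6, a phosphatase of blood cells, by 2.56 (standard error 0.64) from at most 5.99 CPM. Socs1 (-0.21, standard error 0.24), Ptpn1 (0.13, standard error 0.13) and Pias1 (-0.04, standard error 0.17) did not pass. Removal of the length trend left 2 called higher and 1 lower, against 11.9% and 17.5% of all tested genes. The fold change of Socs2 then shrank to -0.21 (adjusted p = 0.168) and that of Socs7 to 0.58 (adjusted p = 0.06, both edgeR), and neither was called.

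Of 18 known STAT3 target genes other than Socs3, 4 were called higher and 4 lower (median -0.02), close to the shares over all tested genes (18.9% and 22.5%). These counts were 3 and 4 with the length trend removed, against 11.9% and 17.5% of all tested genes. Icam1, an adhesion molecule, fell by 2.60 (standard error 0.34), from 138.5 to 494 CPM to 51.4 to 69.6 CPM. Timp1, a protease inhibitor, fell by 1.73 (standard error 0.27) and Fos by 0.41 (standard error 0.13). Saa3, an acute-phase protein, was called lower as well (-0.91, standard error 0.20), but its libraries overlapped, with control 2B at 61.8, 1B at 89.8, 1A at 99.99 and 2A at 277 CPM against 60.3 to 74.0 CPM in the VA-free libraries. Without control 2A its log2 fold change was -0.24 (adjusted p = 0.374, edgeR). Bcl3 rose by 0.93 (standard error 0.24) and the survival factor Mcl1 by 0.86 (standard error 0.20). Junb (0.04, standard error 0.17) and Cebpd (-0.01, standard error 0.19) did not pass. In the fit without the length trend, Fos (-0.25, adjusted p = 0.228) and Mcl1 (0.63, adjusted p = 0.0526, both edgeR) lost their call, Timp1 shrank to -1.01, and 3 genes not called before were called, Hif1a lower (-0.58) and Pim1 (1.41) and Myc (0.54) higher. Icam1 is also made by endothelial cells, whose markers fell as given above.

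Genes that control Il6 transcription or mRNA decay were counted last. Of these 19, 6 were called higher and 2 lower (median 0.35), against 18.9% and 22.5% of all tested genes. The NF-kB subunits Nfkb2 (1.36, standard error 0.22), Relb (1.01, standard error 0.18) and Rela (0.96, standard error 0.21) rose, while Il6 itself was lower. The NF-kB inhibitor Nfkbia was called lower (-0.90, standard error 0.21), but control 2A (694 CPM, against 1320 to 1473 CPM in the other control libraries) lay within the VA-free range of 564 to 781 CPM, and with the length trend removed it was not called (-0.29, adjusted p = 0.344, edgeR). Tlr2 fell by 1.07 (standard error 0.20). The AP-1 subunits Jun (-0.14, standard error 0.15) and Atf3 (-0.10, standard error 0.26) and the mRNA-decay factor Zfp36 (0.03, standard error 0.29) did not pass. With the length trend removed, 3 of the 19 were called higher and 3 lower, against 11.9% and 17.5% of all tested genes. The higher ones were Nfkb2, Relb and Rela. The lower ones were Tlr2 (-1.42), Jun (-0.53) and the interleukin-1 receptor Il1r1 (-0.66), of which Jun and Il1r1 had not been called before. Every gene given as risen, fallen or called in these lists had an adjusted p under 0.05 in the edgeR fit over all genes, unless another fit is named. Of the named genes called in that fit, only Saa3 lost its call without control 2A. Other settings moved the counts of these lists more. Among the STAT3 targets, the 4 higher calls became 1 with 1 library per mouse and 7 with log2(TPM + 1). The 4 lower calls became 2 without control library 2B. With log2(TPM + 1) the median log2 fold change of all genes was 0.19, against 0.003 in the edgeR fit. Fewer of all tested genes were called without control library 2B. The shares over all genes in these fits are not given, so these counts are not read as a trait of the list. Over all lists and alternatives, 46 counts moved, and 174 stayed the same or changed little.

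Finally, the genes with the profile most like Il6 and most like Socs3 over the 8 libraries were listed among the 9599 genes averaging 10 CPM or more, by the root mean square difference of centred log2(CPM + 1). Closest to Il6 were Tm6sf1 (0.177), the apelin receptor Aplnr (0.193), Neurl3 (0.212), Rgs3 (0.229) and Icam1 (0.235). Aplnr, for example, was at 7.62 to 17.0 CPM in the VA-free and 43.4 to 116 CPM in the control libraries, again lowest in 2A among the controls. Closest to Socs3 were Numbl (0.097), Adamts4 (0.105), Llgl1 (0.107), Sim2 (0.115) and desmin, Des (0.116). These too were lowest in control 2A, where Des stood at 100.2 CPM against 481 to 741.7 CPM in the other control libraries and 988 to 1177 CPM in the VA-free libraries. The measure weights all libraries alike, and libraries of a mouse are not independent.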

How the data were processed

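RNA of sorted MuSCs was copied with a SMART-Seq v4 kit and made into Nextera XT libraries, sequenced as single-end reads. The authors pseudoaligned the reads to Ensembl 96 mouse transcripts (GRCm38) with kallisto, version 0.46.2 per the labels, and deposited estimated counts and TPM per transcript, not normalized between libraries. TPM divides by effective length and keeps no depth.

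Counts were summed per gene through GENCODE M21, which left 0.647% to 0.756% of a library without a gene, added over the libraries of a mouse and rounded. The 3 VA-free and 2 control mice were compared by the quasi-likelihood test of edgeR (version 4.0.16, R 4.3.3) after TMM scaling and its expression filter, adjusted by Benjamini-Hochberg over 17997 genes (threshold 0.05), and the fits were tested on simulated data. CPM is TMM-normalized. The standard error is the log2 fold change divided by the square root of F. DESeq2 1.42.0, limma 3.58.1 (voom, and log2 TPM with a pseudocount of 1 or 0.1), other filters and scalings, length corrections, a replicate block and leaving out mice or libraries made 22 alternatives. The length correction subtracted a lowess trend (span 0.3) of each mouse. Columns of effective length served the effective-length offset.

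The text names the 10 members, from each list the 4 most abundant genes and up to 4 called genes of largest change, and the 5 genes most like Il6 and Socs3. One gene covered by this rule is left out of the text. Members and lists were chosen with earlier results of these data known. The transcript classes and the motifs were also chosen that way.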

Additional observations from a re-analysis of the deposited data

Results flagged for a closer look

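One value stood far from the rest of its group. Osmr was at 53.3 CPM in control 2A and between 86.2 and 92.1 CPM in the other 3 control libraries, so that the gap to its neighbour was 0.848 of the whole range of the group. Such a gap appears by chance in about 1 of 20 groups, and 28 groups of 4 libraries (members and transcript shares) were examined. Control 2A and 2B are portions of 1 mouse.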

How the results depend on the processing

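Il6 and Lifr stayed called lower under all 22 alternatives, Il6ra under all but log2(TPM + 0.1). With a VA-free mouse left out, 3 members were called lower and 3 to 4 higher. Members called higher dropped to 0 with 1 library per mouse, where Lif, Jak2, Stat3 and Socs3 all lost their call, to 2 with the length trend removed, and to 2 without control library 2B. Leaving out a VA-free mouse gave 5606 to 5953 called genes in all, and leaving out control library 2B gave 4476. With the replicate block, 2 members were called higher. Deviations of same-numbered mice correlated at -0.065 and 0.01. The deviations of the 2 control mice mirror each other, so these values cannot decide whether the replicate numbers pair the mice. The sign of Il6st turned with 1 library per mouse (0.092), log2(TPM + 1) (0.304), log2(TPM + 0.1) (0.306) and without control library 2B (0.003), and leaving out control mouse 1 or 2 gave 0.377 or -0.515. The signs of Osmr (-0.263) and Jak1 (-0.074) turned with the length trend removed. Osmr passed with log2(TPM + 1) (0.79) and log2(TPM + 0.1) (0.81), and Jak1 with both (0.52 each) and DESeq2 (0.29). The TPM scale moved the median of all genes to 0.19 and 0.35, so these rises are to be read against that shift. The cause of these changes was not tested beyond the settings named. Over all members, 192 fold changes kept direction and side of the threshold, 15 lost the call, 6 gained one and 7 turned. Depth limits Lif and Il6ra, and 2 control mice limit every spread.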
